A study of Gallus gallus with 12 samples.

Results

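This account describes the regions of open chromatin that were called in the optic fissure margin (OFM) of chicken embryos at Hamburger-Hamilton stage 30 (HH30) and in no other group of the study. The members were chosen from the authors' peak calls: peaks of the 4 groups that overlapped by at least 1 bp were merged into union regions, and a region was kept when it lay on chromosomes 1 to 28 and held a peak in the HH30 OFM list alone. This gave 7908 members of 119805 union regions on these chromosomes, and of 127749 on all chromosomes. The members thus made up 6.60% of the regions, and 7.74% of the 102112 HH30 OFM peaks on chromosomes 1 to 28. These counts are what the rule selected.

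The study profiled OFM and dorsal retina at HH30 and at HH34 by ATAC-seq, in which the transposase Tn5 inserts adapters into accessible DNA. All embryos were wildtype hy-line chicken, so the groups differed in tissue and stage only, as far as the labels say. Each of the 4 groups (OFM HH30, dorsal retina HH30, OFM HH34, dorsal retina HH34) had 3 replicates, each pooled from the tissue of 10 embryos, and 50000 cells were counted per library. The submitters called peaks once per group over all its replicates, so each group is 1 list without replicate values. No spread between replicates could be set against any difference below, and no test between groups was made. The intervals given cover counting error at most.

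The optic fissure is the ventral gap of the optic cup through which mesenchyme and vessels enter the eye. Its margins approach, lose their basement membrane and fuse, and failure of this step is known as coloboma. The fissure margin and the ventral retina are known for the transcription factors PAX2, VAX1 and VAX2, and dorsal retina for TBX5. Distal regulatory elements of such genes commonly appear in ATAC-seq as short accessible regions away from gene starts. The regions are given here by position alone, in the coordinates of the lists (galGal6, per the submitters' processing notes). Which genes lie nearby, and their sequence, was not analysed here, and the tissue labels were not checked against marker genes.

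The members were mostly weak calls. The strength of a peak as a call is described by the area score of the authors' peak caller and by its rank within the list. The score was taken as deposited and was not recomputed from reads. Rank 1 of 108689 is strongest. Member peaks had a median width of 196 bp (quartiles 158 and 281 bp, range 99 to 1084 bp), while the median over all HH30 OFM peaks was 382 bp. Their median −log10 q at the summit was 4.13 (quartiles 3.73 and 4.73), while that of the list was 7.83. The summit lay near the middle, at 49.5% of the peak width in the median. Every member held a single HH30 OFM peak, and together the members covered 1835 kb, or 2.98% of the bases under HH30 OFM peaks.

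Of the members, 81.9% lay in the lowest 25% of the list by area score and 125 (1.58%) in the upper 50%. The lowest 25% of their own list held 92.7% of list-only peaks for dorsal HH30, 94.6% for OFM HH34 and 88.6% for dorsal HH34. A single member lay in the upper 25%. In the weakest 10% of HH30 OFM peaks, 3678 of 10250 peaks (35.9%) were members, and this share fell to 21.2%, 10.8%, 5.61% and 2.60% in the next steps of 10%. It was 0 among the strongest 20% of the list. The other 3 lists showed the same decline from lower starting levels. In their weakest 10%, the share of peaks found in that list alone was 25.3% for dorsal HH34, 19.3% for dorsal HH30 and 13.9% for OFM HH34. The excess of OFM HH30 reached further up the list: in the fifth step from the weakest it was 2.60%, against 0.659% for dorsal HH34, 0.270% for dorsal HH30 and 0.111% for OFM HH34.

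**Figure D1:**
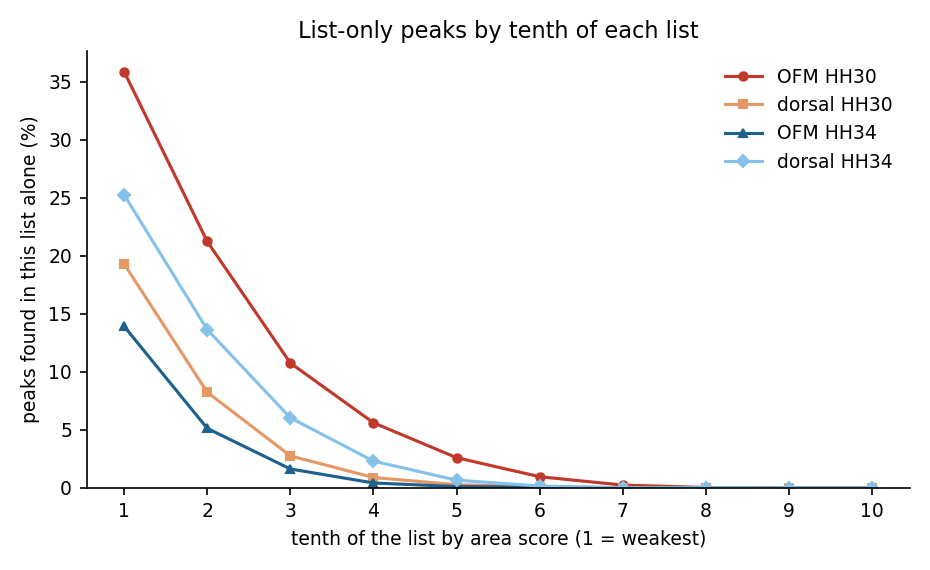
Share of peaks found in 1 list alone (y axis, %) in steps of 10% of each list by area score (x axis, 1 is the weakest), on chromosomes 1 to 28, with 1 line per list. OFM HH30 is highest in the first 8 steps, at 35.9% in the weakest.

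List length bears on these counts. As deposited, list-only regions numbered 7908 for OFM HH30, 3168 for dorsal HH30, 2094 for OFM HH34 and 4588 for dorsal HH34. They made up 6.60%, 2.64%, 1.75% and 3.83% of all union regions, and 7.74%, 3.17%, 2.13% and 4.81% of the peaks of their own list, in that order. When each list was shortened by area score to the 101452 peaks of the shortest, the numbers were 6332, 2957, 1869 and 5599 in that order. OFM HH30 stayed the highest, while dorsal HH34, the shortest list and left whole in this setting, came closer to it. The read depth behind each list was not used here, so its part in the counts was not tested.

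Some members lay close to the caller's minimum score, but none lay directly at the overlap limit of the rule. The caller's area score has a minimum just above 200, and 1124 members (14.2%) had a score under 220, against 2.62% of all HH30 OFM peaks. This share was higher for the other list-only peaks, at 23.0% for dorsal HH30, 23.9% for OFM HH34 and 17.4% for dorsal HH34. The 20 members closest to a peak of another list had gaps of 56 to 101 bp, a median width of 170.5 bp and a median −log10 q of 4.18. The 20 HH30 OFM peaks with the smallest overlap that kept them out had overlaps of 61 to 105 bp, a median width of 103 bp and a median −log10 q of 4.22. Many of these were narrow peaks, which a choice by smallest overlap in bp favours. None had an overlap near the limit of 1 bp.

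The members stood at a range of distances from peaks of the other lists. The nearest peak of any other list was a median of 2204.5 bp away (quartiles 603.5 and 6325 bp). It lay within 200 bp for 813 members (10.3%), beyond that but within 2000 bp for 2949 (37.3%), beyond 2000 bp but within 10000 bp for 2953 (37.3%) and farther for 1193 (15.1%). Other single-list regions lay closer to peaks of the remaining lists, with medians of 1464 bp for dorsal HH30, 1207 bp for OFM HH34 and 1065 bp for dorsal HH34. The members were thus the most distant of the 4 sets, each measured against a different 3 lists. This order also followed the lengths of their own lists, from 108689 peaks for OFM HH30 to 101452 for dorsal HH34. Distances were not repeated at equal list length. Members farther from other lists were somewhat stronger. Median −log10 q was 4.10 in the closest class and 4.19 in the farthest, and the median percentile in the list was 8.20 and 12.8. The share in the upper 50% of the list was 0.246% (2 of 813) within 200 bp, then 1.29%, 2.13% and 1.84%. By list, the members lay closest to dorsal HH30 peaks (median 2631 bp), then to OFM HH34 (2747.5 bp) and farthest from dorsal HH34 (3310 bp). This order followed the lengths of the lists, which were 106170, 105103 and 101452 peaks.

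The members tended to lie in stretches with fewer shared regions, with wide overlap between the sets. Surroundings were measured as the number of regions with a peak in all 4 lists, here called shared regions, whose centres lay within a 500 kb window around a peak. The median count was 38 around a member (quartiles 25 and 53) and 49 around a shared region (quartiles 33 and 73), the region itself left out. It was 43.5 around regions of dorsal HH30 alone, 45 around those of OFM HH34 alone and 54 around those of dorsal HH34 alone. On chromosomes 1 to 5 the median was 32 around members and 38 around shared regions, and on chromosomes 11 to 28 it was 63 and 76. For dorsal HH30, OFM HH34 and dorsal HH34 alone it was 36, 35 and 40 on chromosomes 1 to 5. On chromosomes 11 to 28 it was 68, 77.5 and 75 in that order.

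HH30 OFM peaks were then split into 5 classes of about 20% each by this count. Here the own region of a peak was not left out, so peaks in shared regions gained a count that members could not. Shared regions also come from the same peak calls as the rule. A stretch where other lists have few calls tends to lose shared regions and gain list-only peaks. The count and the share are thus not independent, and how far this sets the decline was not tested. In the sparsest class, with 0 to 29 shared regions in the window, 2679 of 21205 peaks (12.6%) were members. The share fell through 9.31%, 7.74% and 5.49% to 653 of 20104 peaks (3.25%) in the densest class, with 78 to 175 shared regions. The sparsest class thus had 3.89 times the share of the densest. With the same limits, the ratio was 1.73 for dorsal HH30 and 1.32 for OFM HH34. For dorsal HH34 it was 0.848, so that list-only peaks there were more frequent in dense stretches when chromosomes 1 to 28 were pooled. On chromosomes 1 to 5 the dorsal HH34 share rose from 4.20% in the sparsest class to 5.35% in the densest. It fell from 4.36% to 4.15% on chromosomes 6 to 10 and from 7.28% to 5.62% on chromosomes 11 to 28. At equal list length the ratios were 4.28 for OFM HH30, 1.90, 1.41 and 0.910 in the same order.

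Weak peaks were slightly more common in sparse stretches: the weakest 20% of the HH30 OFM list made up 22.7% of peaks in the sparsest class and 18.3% in the densest. Among these weak peaks alone, the share of members was 38.1% in the sparsest class, 33.2%, 30.6% and 22.9% in the next, and 14.4% in the densest. That ratio was 2.64, against 1.27 for dorsal HH30, 0.962 for OFM HH34 and 0.663 for dorsal HH34. The decline was thus also present within the weakest 20% of the list. In the densest class the weak peaks of OFM HH30 had a lower share than those of dorsal HH34, at 14.4% against 24.0%.

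**Figure D2:**
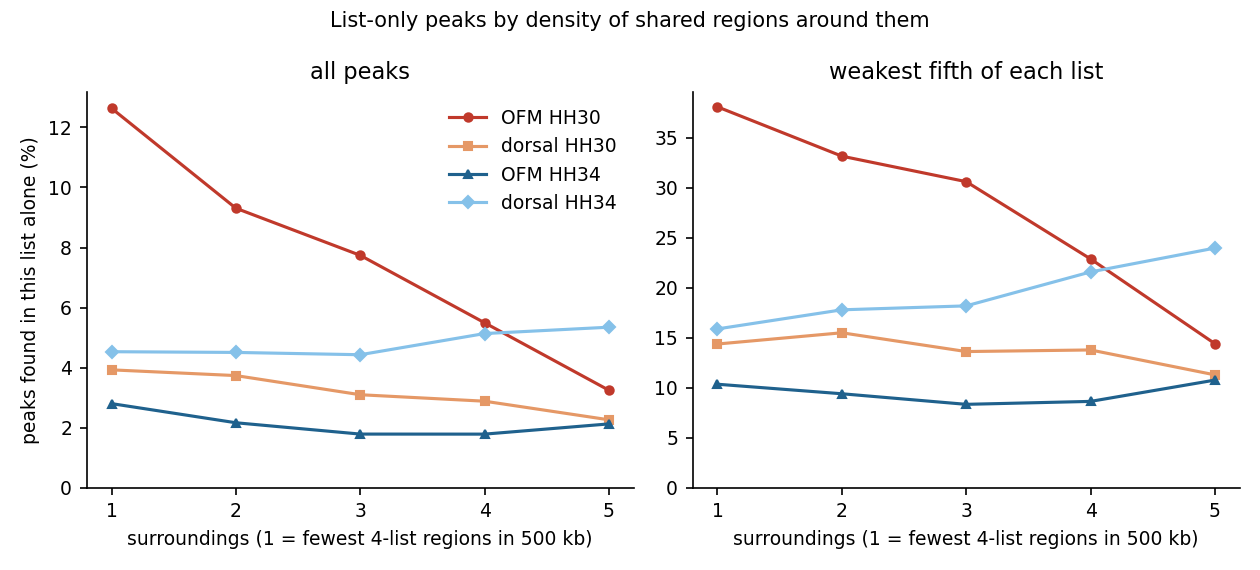
Share of peaks found in 1 list alone (y axis, %) in 5 classes of surroundings (x axis, 1 has the fewest shared regions in 500 kb), for all peaks (left) and the weakest 20% of each list (right), with 1 line per list. OFM HH30 falls from 12.6% to 3.25% on the left and from 38.1% to 14.4% on the right, while dorsal HH34 rises on the right from 15.9% to 24.0%.

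The chicken karyotype joins a few large macrochromosomes with many small, gene-dense microchromosomes, and the members were unevenly divided between them. Chromosomes 1 to 5 held 5007 members, or 63.3% (95% Wilson interval 62.2 to 64.4%), against 52.3% of all HH30 OFM peaks and 50.3% of shared regions. Chromosomes 11 to 28 held 18.6% of the members and 31.5% of the shared regions. Among regions of the other single lists, chromosomes 1 to 5 held 55.7% for dorsal HH30, 52.4% for OFM HH34 and 43.3% for dorsal HH34. Regions of both HH30 lists alone (61.0%) and of both OFM lists alone (60.1%) stood close to the members, so the lean toward large chromosomes was not particular to them. Of single-list regions, the order was the same at equal list length, with 64.5%, 56.1%, 53.3% and 43.2%. Of the 125 members in the upper 50% of the list, 87 (69.6%) lay on chromosomes 1 to 5, above the share over all members but with a 95% Wilson interval of 61.1 to 77.0%. Each interval treats members as independent, while members often lay close together, so each may be too narrow.

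By chromosome, the share of HH30 OFM peaks that were members was highest on chromosome 2, with 1246 members (10.1%). Chromosomes 3, 1 and 4 followed with 9.49%, 9.43% and 9.36%. The lowest shares were on chromosome 25 (9 members, 1.47%), chromosome 16 (3 members, 1.90%) and chromosome 28 (24 members, 2.07%). Dorsal HH34 showed the opposite direction, with list-only peaks at 4.40% on chromosome 2 and 9.91% on chromosome 25. OFM HH34 varied least, between 1.51% and 2.87%.

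**Figure D3:**
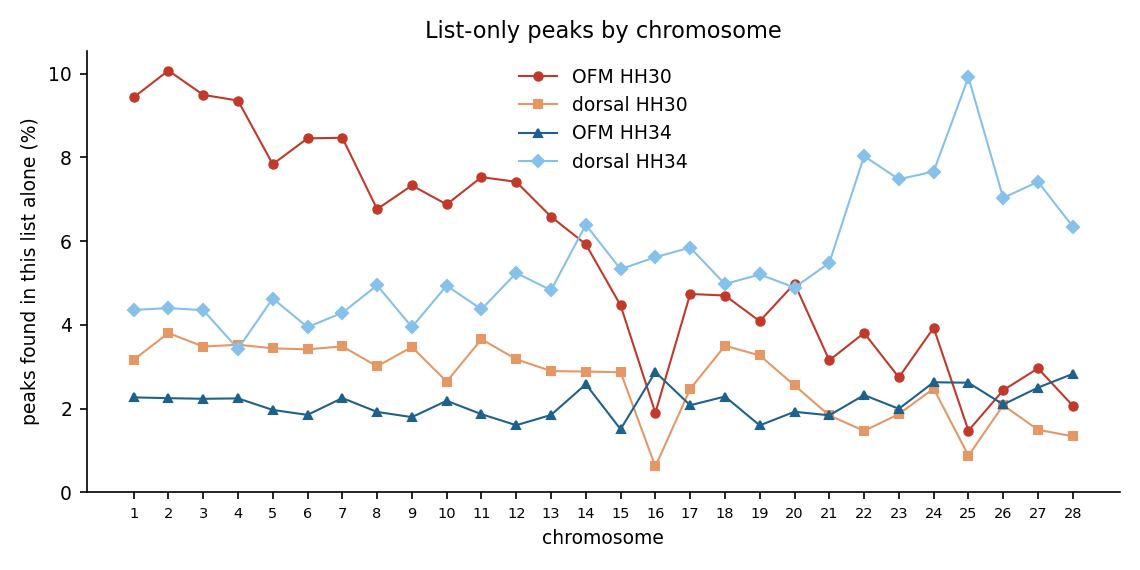
Share of peaks found in 1 list alone (y axis, %) on chromosomes 1 to 28 (x axis), with 1 line per list. OFM HH30 stands at 10.1% on chromosome 2 and 1.47% on chromosome 25, and dorsal HH34 at 4.40% and 9.91%.

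Within one class of surroundings, the chromosome classes differed less. In the sparsest class the share of members was 12.8% on chromosomes 1 to 5, 12.9% on chromosomes 6 to 10 and 10.4% on chromosomes 11 to 28. In the densest class it was 2.56%, 3.95% and 3.19%. Taken over all surroundings these shares were 9.38%, 7.67% and 4.89%. Within each chromosome class, in contrast, the share in the sparsest surroundings exceeded that in the densest.

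The ends of chromosomes 1 to 5 held few members. Within 2 Mb of the outermost peak of a chromosome, 92 of 2651 HH30 OFM peaks (3.47%) were members. The share was 7.36% at 2 to 5 Mb, 10.3% at 5 to 10 Mb and 9.78% farther in. For dorsal HH30 the corresponding shares were nearly level, at 3.12% near the end and 3.50% farther in, and for dorsal HH34 they fell from 7.37% to 3.84%. Over 62 bins of 10 Mb with at least 200 peaks on these chromosomes, the share of members ranged from 0.948% to 13.3%, with a median of 9.67%. It exceeded the dorsal HH34 share in 59 of the 62 bins. The members were therefore spread along the large chromosomes and not gathered in a few bins.

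The shared regions close to members ranked higher in the HH30 OFM list than in the other lists. For each shared region, the rank shift was its percentile by area score in the HH30 OFM list minus its mean percentile in the other 3 lists. This uses the same lists as the rule, but other regions. Over all 72877 shared regions the median shift was 0.706 percentile points, with 59.0% above 0. Over the 12918 shared regions within 10 kb of a member the median was 1.72 points (quartiles −1.13 and 8.25), with 68.1% above 0. Within 2 kb it was 2.85 points over 3565 regions, with 75.0% above 0. Beyond 50 kb it was 0.220 points, with 53.3% above 0. The spread between regions was wide at every distance, as the quartiles show.

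Against single lists, shared regions within 10 kb of a member stood a median of 2.90 points higher in OFM HH30 than in dorsal HH34, where the median over all shared regions was 1.31. Against OFM HH34 the medians were 1.35 near members and 0.606 over all. Against dorsal HH30 they were 0.427 and 0.00610. The order of these shifts is also the order of the list lengths, and percentiles move with list length. With ranks taken over shared regions alone, an alternative chosen after seeing the data in which list length does not enter, the medians near members were 1.83 against dorsal HH34, 1.20 against OFM HH34 and 0.493 against dorsal HH30, where those over all shared regions were 0.324, 0.392 and −0.0206. The shift from the mean of the other 3 lists was larger near members than over all shared regions on each chromosome class, with 2.29 against 1.44 points on chromosomes 1 to 5, 2.15 against 0.978 on chromosomes 6 to 10 and 0.603 against −0.310 on chromosomes 11 to 28. Against dorsal HH30 alone, the medians near members in these classes were 0.585, 0.530 and 0.0317 points. Those over all shared regions were 0.199, 0.101 and −0.498. On chromosomes 11 to 28, 50.7% of the shifts near members against dorsal HH30 were above 0.

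A shift of this kind was not particular to OFM HH30. Shared regions within 2 kb of a region of dorsal HH30 alone had a median shift of 2.52 points toward dorsal HH30, those near OFM HH34 regions 1.42 points and those near dorsal HH34 regions 1.99 points, each toward its own list. Over all shared regions these medians were 0.798, −0.0274 and −1.06 points.

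**Figure D4:**
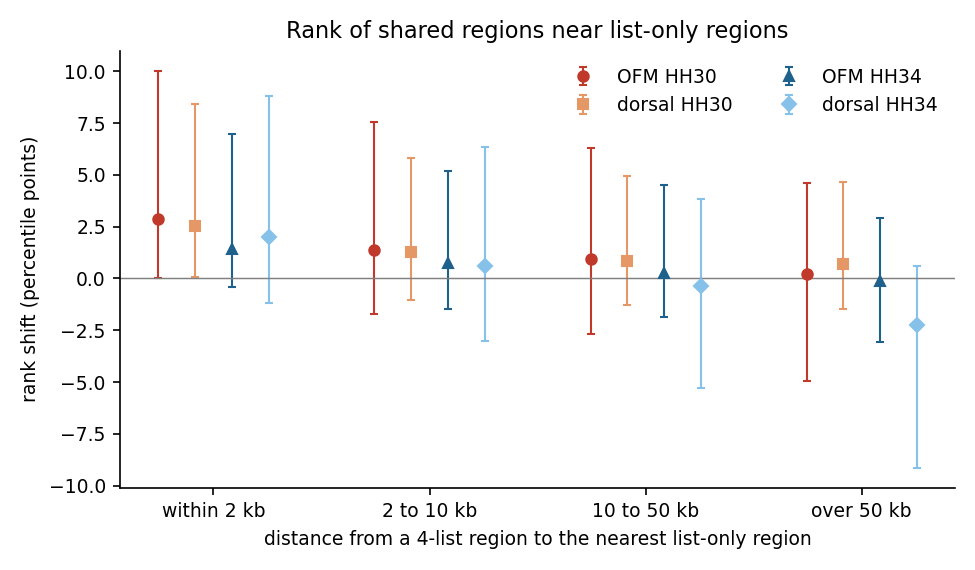
Rank shift of shared regions toward a list (y axis, percentile points) by distance to the nearest region found in that list alone (x axis). Points are medians and bars span the quartiles over regions, not replicates. For OFM HH30 the median falls from 2.85 points within 2 kb to 0.220 beyond 50 kb, and each of the other lists has its highest median within 2 kb.

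The surroundings of members also differed in regions of other patterns. A region called in both OFM lists alone lay within 10 kb of 688 members (8.70%), against 7.14% of shared regions. One called in both dorsal lists alone lay near 202 members (2.55%), against 5.50% of shared regions. For both HH30 lists alone the shares were 18.1% and 16.7%, and for both HH34 lists alone 8.80% and 17.8%. Regions found in 1 other list alone had lower shares around members than around shared regions, whatever the tissue or stage: 6.60% against 9.57% for dorsal HH30, 4.69% against 7.39% for OFM HH34 and 7.35% against 15.6% for dorsal HH34. The same held around the regions of each other single list, so these lower shares were not particular to members. Around regions of dorsal HH34 alone, the shares for the pairs of lists were 5.43% for both OFM lists, 8.20% for both dorsal lists, 12.2% for both HH30 lists and 27.7% for both HH34 lists. Members thus had higher shares than shared regions for both OFM lists and for both HH30 lists. Their shares were lower for each other pattern given here. Each other single-list set likewise had higher shares than shared regions for the pairs that include its own list, so this was not particular to members. Both HH30 lists reached 20.6% around regions of dorsal HH30 alone, and both OFM lists 10.5% around those of OFM HH34 alone. These differences were not tested. Shared regions themselves were also fewer around members: 74.1% of members and 85.8% of shared regions had another shared region within 10 kb.

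The members were often close to each other. Another member lay within 10 kb of 1946 members, or 24.6% (95% Wilson interval 23.7 to 25.6%), and within 50 kb of 64.3%. The interval treats members as independent, while neighbouring members count each other, so it is too narrow. The share within 10 kb was 27.7% for dorsal HH34, 14.6% for dorsal HH30 and 13.1% for OFM HH34, in sets of different size. A measure relative to set size takes the next peak along the list. After a member, the next HH30 OFM peak was also a member in 12.7% of cases, which is 1.64 times the 7.75% over all peaks. This ratio was 1.77 for dorsal HH30 (5.62% against 3.17%), 2.00 for OFM HH34 (4.25% against 2.13%) and 1.79 for dorsal HH34 (8.61% against 4.81%). By this ratio, neighbouring was no stronger in OFM HH30. By the plain difference between the shares OFM HH30 stood highest, so the order depends on the scale. Joining members at most 10 kb apart left 5962 alone and gave 730 pairs, 113 runs of 3, 22 runs of 4, 5 runs of 5, 1 run of 6 and 4 runs of 7.

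The most compact run of 7 members lay on chromosome 3, positions 63902235 to 63915385 (13151 bp). The span held 8 HH30 OFM peaks, of which 1 was matched in dorsal HH30, and no peak of either HH34 list. Its members ranked from 71881 to 104349 and had −log10 q of 2.95 to 6.38. The strongest, at 63914429 to 63914786, lay 1373 bp from the nearest peak of another list. A second run of 7 on chromosome 3, positions 35115639 to 35137956, differed in that the span also held 4 peaks of each other list, and its members had −log10 q of 3.63 to 4.45.

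On chromosome 13, positions 4330796 to 4354326, 7 members stood among 9 HH30 OFM peaks, with 1 dorsal HH30, 2 OFM HH34 and 1 dorsal HH34 peak in the same span. The strongest of these, at 4346411 to 4346742, ranked 59754 with −log10 q of 7.14 and was 7272 bp from any peak of another list. The chromosome 4 run, at 85180779 to 85204314, held the highest ranking member of the 5 runs, at 85203747 to 85204314, with rank 48991 and −log10 q of 6.10. Each other list had a single peak in that span. The last run, 6 members on chromosome 3 at 57350954 to 57365854, likewise held 1 peak of each other list. Of the 34 members in the 5 runs, this chromosome 4 member alone lay in the upper 50% of the list. The runs were groups of weak calls lying side by side.

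**Figure D5:**
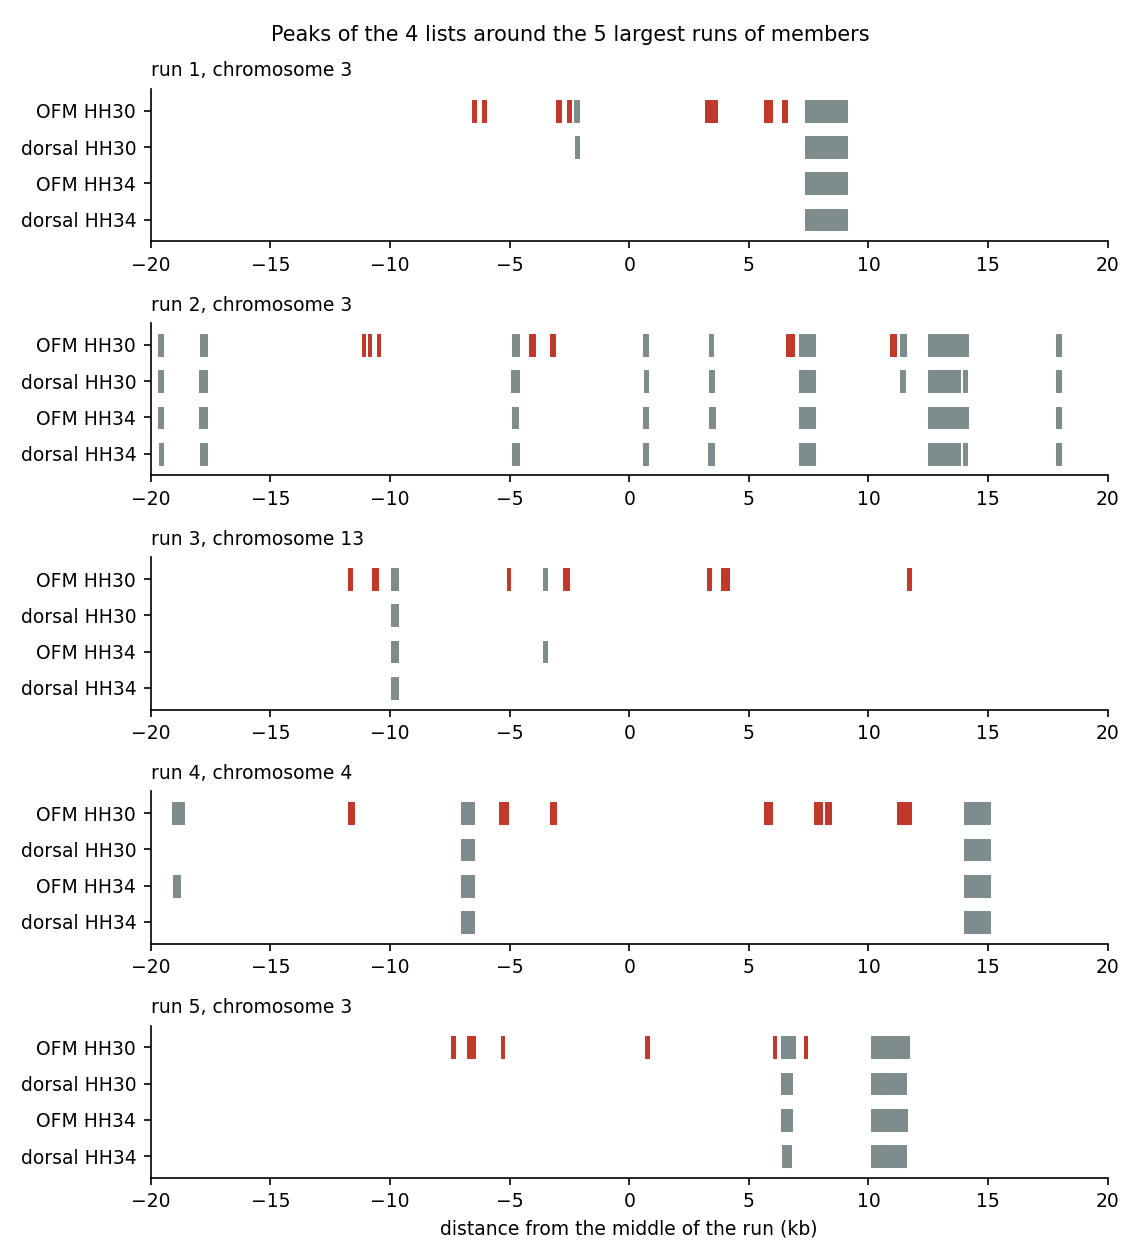
Peaks of the 4 lists around the 5 runs with the most members, as distance from the middle of each run (x axis, kb), with 1 row per list. Members are red and other peaks grey, and bar length is peak width. In the first run the 7 members stand without any HH34 peak between them, and in the second peaks of all 4 lists lie among the members.

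The strongest members by area score are given singly. The first lay on chromosome 2, positions 75582041 to 75583124, was 1084 bp wide and ranked 24871, with −log10 q of 10.2. The nearest peaks of other lists were 5730 bp away in dorsal HH30, 7181 bp in OFM HH34 and 7184 bp in dorsal HH34, so no call of another list flanked it closely. The second, also on chromosome 2 at 70163441 to 70164070, ranked 29041 with −log10 q of 10.7. It had an OFM HH34 peak 682 bp away, itself weak with a rank of 92226. The third lay on chromosome 1 at 45476781 to 45477789 and had −log10 q of 8.25. It stood beside a peak present in each list, 629 to 632 bp away.

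The fourth, on chromosome 3 at 70008213 to 70008812, was the most isolated of the 8, with the nearest peak of another list 70177 bp away and the nearest HH30 OFM peak at 56094 bp. Its −log10 q was 10.4. The fifth, on chromosome 8 at 16448032 to 16448620, had a dorsal HH30 peak at 2128 bp and its nearest dorsal HH34 peak at 11878 bp. The sixth, on chromosome 5 at 31923226 to 31923789, had −log10 q of 11.58, and the closest peaks were from HH34, with OFM at 5902 bp and dorsal retina at 5899 bp.

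The seventh, on chromosome 1 at 9204233 to 9204696, had the highest −log10 q of all members, 11.65, at a width of 464 bp. Its nearest peak of another list was from OFM HH34 at 6806 bp, with a rank of 97090. The eighth, on chromosome 12 at 6044600 to 6045025, lay 26583 to 26593 bp from the nearest peak of each other list. Of these 8 members, 6 lay on chromosomes 1 to 5. The smallest gap to a peak of another list among the 8 was 629 bp.

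The members farthest from any peak of another list were, in contrast, weak. The farthest lay on chromosome 1 at 162782994 to 162783116, was 123 bp wide, had an area score of 203.6 and stood 146228 bp from the nearest such peak. The next, on chromosome 4 at 26055876 to 26056111, was 128484 bp away and the strongest of the 5, with −log10 q of 5.89 and rank 75024. The third, on chromosome 1 at 95505155 to 95505496, lay 122836 bp from a peak that ranked 50 in OFM HH34, 55 in dorsal HH30 and 59 in dorsal HH34. The other two were neighbours 248 bp apart on chromosome 1, at 74334467 to 74334616 and 74334865 to 74335010, with ranks of 102493 and 103831.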

How the data were processed

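Accessible chromatin was measured by omni-ATAC-seq in 12 libraries of 4 groups, sequenced as 75 bp paired-end reads. Per the labels, each library had 189 M reads or more. The submitters' processing notes name Trim Galore, cutadapt 1.16, Bowtie2 2.3.4.3, SAMtools 1.6 and Genrich 0.6, and the build galGal6 (GRCg6a); their settings are not given in the sources used here. Peaks were called jointly over the samples of a group, per the labels. A joint call hides whether 1 replicate alone carries a peak.

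The deposited lists have 10 unnamed columns in narrowPeak order. The area score and the −log10 q at the summit are the authors' deposited values and were used within 1 list at a time, for description, ranking and filtering. A second deposited score with an upper limit was not used. Starts were counted from 1.

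Regions were merged and compared with Python 3.11.15, numpy 2.4.6 and pandas 2.3.3. Merging and distances were checked on simulated data. The gene table at hand is of another build (GRCg7b), so planned annotation, motif and gene-list results were not run, and no genome sequence was used. Members, measures and alternatives were chosen with earlier results of these data known. Classes of surroundings, chromosome ends, bins and the next-peak ratio were added once the lists had been examined. Named regions were the 8 members with the highest area score, the 5 farthest from other lists and the 5 largest runs. Alternatives changed the overlap rule, the merging distance, the peaks kept, the chromosomes and the distances.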

Additional observations from a re-analysis of the deposited data

Results flagged for a closer look

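On chromosome Z, which the choice of members leaves out, 636 regions had a peak in the HH30 OFM list alone. They made up 12.2% of HH30 OFM peaks on Z, above the 10.1% of chromosome 2, and the corresponding shares on Z were 1.93% for dorsal HH30, 3.30% for OFM HH34 and 3.57% for dorsal HH34. The HH30 OFM list also had the most peaks on Z, with 5214 against 4571, 4789 and 4198 in the same order. On chromosome W, OFM HH30 had 97 peaks, dorsal HH30 109, OFM HH34 91 and dorsal HH34 105. Of these, 3, 9, 0 and 9 were found in that list alone. These data lay outside the comparisons above. The differences on Z and W were not tested, and the sex of the pooled embryos was not used here.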

How the results depend on the processing

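The number of members, 7908, stayed within 1.5 times of this value with summits at most 200 bp apart (10199 peaks), merging up to 500 bp (5911), equal list length (6332) and all chromosomes (8564). It moved to 11928 peaks at a reciprocal overlap of 50% and to 3900 regions with merging up to 2000 bp. With the upper 50% of each list it was 3472. That setting also drops the weaker peaks of the other lists, so most of these regions are not members. With the upper 50% of the HH30 OFM list against the other lists in full, it was 125. Most members thus lie low in their list, and this last setting keeps few by construction. The share on chromosomes 1 to 5 moved from 63.3% to 68.8% for members with no peak of another list within 2000 bp and to 69.6% in the upper 50% of the list. The share with another member within 10 kb moved from 24.6% to 64.3% at 50 kb. It was 16.8% among members with no peak of another list within 2000 bp, but neighbours were then sought among these members alone. That lowers the share by construction. With neighbours sought among all members, the share was 24.6% for members above 2000 to 10000 bp from another list and 19.0% for those farther away. The median rank shift of shared regions moved from 1.72 to 2.85 points within 2 kb, and was 1.18 within 50 kb and 1.28 with ranks over shared regions alone, where all shared regions had 0.283. With such ranks, chosen after seeing the data, the shift against dorsal HH34 alone moved from 2.90 to 1.83. No value for members or for the shared regions near them changed sign. With ranks over shared regions alone, the median over all shared regions against dorsal HH30 went from 0.00610 to −0.0206. No paired analysis was possible because peaks were called jointly, with no value per replicate, and leaving out replicates was not run for the same reason. The alternatives for annotation, motifs and gene lists were not run. Depth per library was not used, so a peak missing from a list may have had signal under its threshold, which was not tested.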
